A study of Mus musculus with 24 samples.

Results

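Accessible chromatin of Cux2-lineage callosal projection neurons (Cux2 CPNs) was compared across birth, from embryos at E18.5 to pups at P1 (E for embryonic and P for postnatal day). The comparison took the peak list of each age, restricted to chromosomes 1 to 19 and X, and sorted every peak by position alone. An E18.5 peak was called lost when no P1 peak overlapped it by at least 1 bp, a P1 peak was called gained when no E18.5 peak overlapped it, and the other peaks were called kept. The lists held 33988 peaks at E18.5 and 21747 at P1, together 55735 of the 292908 peaks that the 12 lists of the series held on these chromosomes. Of these, 14967 were lost, 2735 were gained, and 19021 E18.5 peaks were kept, matching 19012 P1 peaks.

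Both groups were neurons from the somatosensory and motor cortex of C57BL/6 mice of genotype Cux2-CreERT2:Ai14, so every sample, at both ages, carried the Cre allele and the reporter. The Cre was knocked into the Cux2 gene, and animals were the offspring of double homozygous males and wild-type C57BL/6J females, so that 1 Cux2 allele carried the insertion. The Ai14 allele makes tdTomato in any cell in which 4-hydroxytamoxifen (4-OHT) has activated the Cre. The drug was given to the pregnant mother late in gestation at 1 mg per 10 g of body weight, and labelled cells were isolated by fluorescence-activated cell sorting. The line is known to label some interneurons as well. Each age had 2 replicate libraries, each pooled from male and female animals of more than 1 litter, and the authors deposited a single list per age from both libraries. The lists hold no value per replicate, so no test between the ages was made here. Intervals given with shares are 95% Wilson intervals and reflect only how many peaks were counted, and the lists do not give the read depth behind them. The methods name a single nominal depth for all ATAC-seq libraries, sequenced with single-end reads, and the depth each library reached was not read here.

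ATAC-seq reads open chromatin through a transposase that inserts adapters where DNA is not covered by nucleosomes. Peaks at transcription start sites (TSSs) mark promoters, and peaks elsewhere often mark enhancers, which change more between cell states than promoters do. Callosal projection neurons of layer 2/3 connect the cortical hemispheres. Around birth they finish migration, extend axons toward the midline and begin to make synapses. Cux1, Cux2, Pou3f2 and Lhx2 are transcription factors known for their part in upper-layer identity, while Tbr1, Foxp2 and Bcl11b belong to deep-layer neurons.

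The sequences below show the summits, with 100 bp on each side, of the strongest lost and gained peaks, and beside them those of a pair of strong kept peaks, all from the plus strand of NCBIM37 (mm9). The strength of a peak is the −log10 p that the peak caller gave it. The kept windows have ranks 3 and 4 among kept peaks, since windows that touched an annotated untranslated region were passed over. They are shown so that the letters behind the motif shares given later can be seen in place. Capitals mark any of 16 short transcription factor motifs searched on both strands.
Lost 1, chr16:63404902-63405102: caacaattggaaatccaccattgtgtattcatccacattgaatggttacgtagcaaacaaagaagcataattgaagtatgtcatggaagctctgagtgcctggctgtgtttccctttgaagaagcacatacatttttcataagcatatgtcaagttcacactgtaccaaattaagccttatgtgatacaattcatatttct
Lost 2, chr2:105144271-105144471: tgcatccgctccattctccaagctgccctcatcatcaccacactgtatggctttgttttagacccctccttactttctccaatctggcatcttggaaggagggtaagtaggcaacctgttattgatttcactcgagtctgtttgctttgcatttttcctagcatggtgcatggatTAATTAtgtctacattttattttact
Gained 1, chr10:126791660-126791860: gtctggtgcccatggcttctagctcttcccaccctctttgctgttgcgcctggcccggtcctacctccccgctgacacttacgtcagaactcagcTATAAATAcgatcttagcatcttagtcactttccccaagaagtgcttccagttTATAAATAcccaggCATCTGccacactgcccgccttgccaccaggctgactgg
Gained 2, chr6:45191387-45191587: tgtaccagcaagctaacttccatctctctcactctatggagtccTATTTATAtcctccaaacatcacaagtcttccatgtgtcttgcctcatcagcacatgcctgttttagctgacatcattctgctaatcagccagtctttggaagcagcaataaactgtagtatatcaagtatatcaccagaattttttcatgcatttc
Kept 3, chr13:12350382-12350582: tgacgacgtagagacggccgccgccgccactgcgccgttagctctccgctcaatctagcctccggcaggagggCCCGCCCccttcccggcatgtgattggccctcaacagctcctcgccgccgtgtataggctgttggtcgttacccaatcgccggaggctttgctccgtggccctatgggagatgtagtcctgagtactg
Kept 4, chr6:37392229-37392429: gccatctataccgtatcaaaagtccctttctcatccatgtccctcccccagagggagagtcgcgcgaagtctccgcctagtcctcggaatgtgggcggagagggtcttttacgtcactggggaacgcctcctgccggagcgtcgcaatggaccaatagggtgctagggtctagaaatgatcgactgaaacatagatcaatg
The window of Lost 1 held none of the motifs, and that of Lost 2 held the homeodomain letters TAATTA. Gained 1 held matches to the MEF2 letters TATTTNTA and a proneural E-box, CAGATG, read on the minus strand. Gained 2 held a MEF2 match as well. Kept 3 held SP/KLF letters, GGGCGGG, and had a GC content of 64.2%, against 36.3% in Lost 1 and 39.8% in Gained 2.

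The loss of peaks outnumbered the gain. At full list length 44% of the E18.5 peaks had no P1 counterpart, and 12.6% of the P1 peaks had no E18.5 counterpart. The E18.5 list was 1.56-fold as long as the P1 list, however, so that 12241 E18.5 peaks lay beyond the P1 length. When the E18.5 list was cut to its 21747 strongest peaks, 5832 were lost (26.8%) and 5787 P1 peaks were gained (26.6%), nearly equal numbers. Of those 5787, 3052 did have an E18.5 peak, but one below the cut, which fell at a −log10 p of 16.4. Conversely, 61.0% of all lost peaks lay below that cut, where 74.6% of E18.5 peaks were lost. Near-equal numbers follow from equal length itself, because almost as many peaks are kept on either side, so the excess of losses over gains cannot be read apart from the lengths of the lists. The caller's running peak numbers reached 157437 at E18.5 and 241179 at P1, and the lists hold 21.6% and 9.02% as many peaks as these numbers, which are upper bounds of the share retained, since the last calls need not be in the list. Reproducibility between the replicates, sequencing depth and a change in the neurons cannot be told apart as sources of the shorter P1 list.

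Lost peaks were mostly weak. Each list was divided by −log10 p into 5 bins of equal size, of which bin 1 was the strongest. In bin 1 166 of 6798 E18.5 peaks were lost (2.44%, interval 2.101 to 2.84%), and the share was 22.6%, 48.6%, 67.0% and 79.5% in the following bins. For P1 peaks the share gained was 0.0230% in bin 1, a single peak, and then 1.84%, 10.3%, 19.02% and 31.7%. Lost peaks had a median −log10 p of 15.1 and a median fold enrichment over background of 8.31, kept E18.5 peaks 27.4 and 11.3, and gained peaks 15.6 and 9.08. Lost and gained peaks were also narrow, with median widths of 386 and 370 bp against 546 bp for kept E18.5 peaks. Hardly any call hung on the edge of a peak. The nearest P1 peak lay within 500 bp of 269 lost peaks (1.797%), and the median gap was 36241 bp. Among kept peaks the overlap covered under 50% of the shorter peak in 17 cases, and the median distance between the summits was 21 bp.

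**Figure D1:**
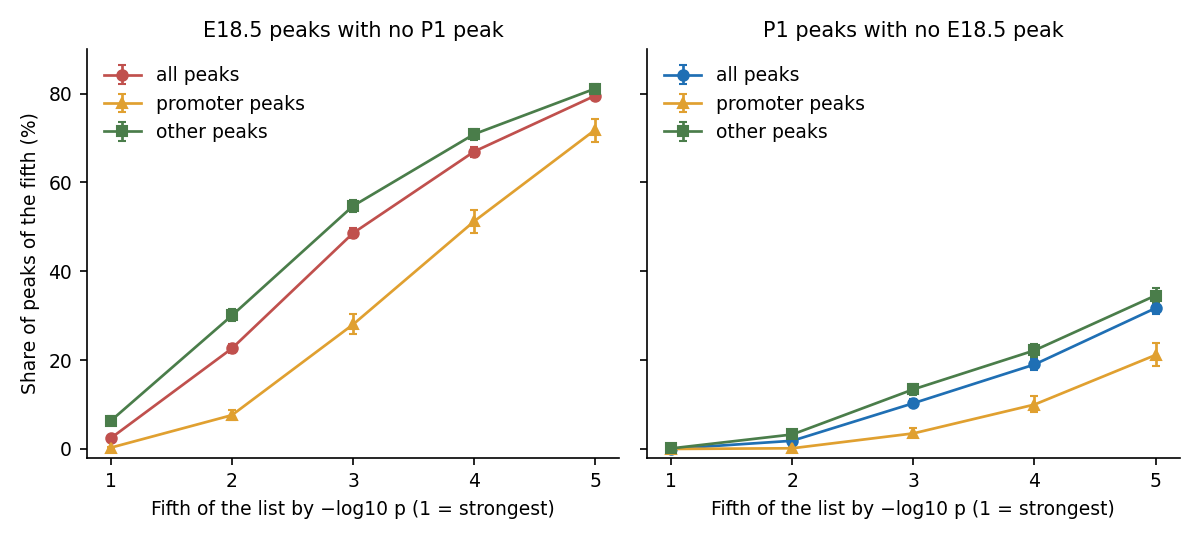
Share of peaks with no counterpart at the other age (y axis, %) in each of 5 equal bins of the list by −log10 p (x axis, 1 is strongest), for E18.5 peaks at left and P1 peaks at right; points are shares over all peaks, promoter peaks and other peaks, and bars are 95% Wilson intervals. The share lost climbs from 2.44% to 79.5% and the share gained from 0.0230% to 31.7%, and promoter peaks lie below the other peaks in every bin.

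Losses and gains lay away from promoters. A promoter peak reached within 1 kb of an annotated TSS, and other peaks were placed by their summit. Promoters made up 14.4% of lost peaks (interval 13.8 to 15.0%), 13.1% of gained peaks (11.9 to 14.4%) and 45.0% of kept E18.5 peaks (44.3 to 45.7%). Introns held 38.4% of lost and 38.6% of gained peaks, against 23.1% of kept ones, and intergenic sequence held 45.1%, 45.6% and 30.5%. The median distance to a TSS was 21993 bp for lost peaks, 20450 bp for gained and 3508 bp for kept E18.5 peaks. Counted the other way, 20.1% of E18.5 promoter peaks were lost, against 56.7% of intronic and 53.8% of intergenic peaks. Promoter peaks were also the stronger ones, yet their lost share was the lower one within each bin of strength too. In bin 2 7.61% of promoter peaks (6.59 to 8.78%) and 30.1% of the others (28.7 to 31.4%) were lost, and in bin 4 51.3% (48.6 to 53.9%) and 70.9% (69.7 to 72.1%). The likeness of lost and gained peaks depended on list length, since at equal length promoters made up 12.9% of lost and 19.8% of gained peaks. Chromosomes differed little, with lost shares from 37.5% on chromosome 11 to 48.1% on chromosome 1, and 46.8% on X.

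**Figure D2:**
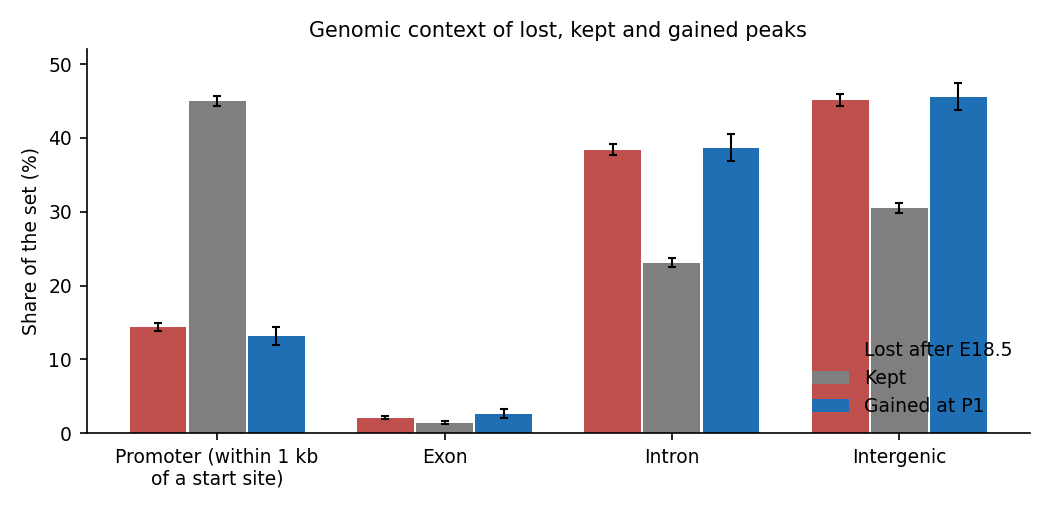
Share of each set (y axis, %) that lay at a promoter, in an exon, in an intron or between genes, for lost, kept E18.5 and gained peaks; bars start at 0 and error bars are 95% Wilson intervals. Kept peaks stand at 45.0% promoters, and lost and gained peaks at 14.4% and 13.1%.

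The strongest lost peaks were mostly far from genes. The first, chr16:63404718-63405389, was intergenic, 458595 bp from the TSS of Epha3, an ephrin receptor that guides axons. Its fold enrichment was 17.4 at E18.5, it was not listed at P1, and it returned at 11.9 at P3 and 10.1 at P7. No Tle4 list and neither late Cux2 list held it. The second, chr2:105144174-105144595, lay in an intron of 0610012H03Rik with a fold enrichment of 16.3, and no other list of the series held it. A peak in an intron of Odz3, which encodes the teneurin-3 adhesion protein (chr8:49543673-49544169), stood at 15.8 at E18.5 and 8.45 at P3 and was in no further list. A peak on chromosome 18 nearest to Zfp521, a zinc finger transcription factor, had 13.8 at E18.5 and 8.31 at P3 in Cux2 neurons. Unlike the previous ones it was also listed in Tle4 neurons, at 11.8, 10.1 and 9.78 at E18.5, P1 and P3. A further one, chr1:96398551-96399632, 349777 bp from Gm17386, was listed only at E18.5, at 12.1. Those near Epha3 and Zfp521 and in Odz3 were thus listed again at P3.

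The strongest gained peaks were listed widely after P1. The first, chr10:126791545-126792326, lay 2717 bp from the TSS of Inhbe, a subunit of the activin and inhibin family. Its fold enrichment was 16.2 at P1 and 15.5, 11.8, 8.71 and 7.16 at P3, P7, P21 and P48, and all 6 Tle4 lists held it, with 19.8 already at E18.5. The Cux2 list of E18.5 was thus the only one of the 12 without it. The second, chr6:45191216-45191646, was in an intron of Cntnap2, which encodes an adhesion protein that clusters potassium channels on axons. It stood at 16.01, 13.6 and 7.85 at P1, P3 and P7 and in no Tle4 list. A peak 17899 bp from 5730469M10Rik (chr14:41798165-41798494) had the same pattern, at 15.5, 13.5 and 8.05. An intergenic peak 549720 bp from Unc5d, a netrin receptor (chr8:29451531-29452266), ran from 13.3 at P1 through 11.3, 8.81 and 8.53 to 6.89 at P48, and joined the Tle4 lists at P1 with 10.1. The promoter of Ndufs7, a subunit of respiratory complex I (chr10:79711729-79712246), stood at 12.4 at P1 and 8.90 at P3 in Cux2 neurons. In Tle4 neurons it was listed at E18.5 with 7.58. The remaining peak, on chromosome 18 nearest to Gm5506, was listed in all later Cux2 lists between 11.2 and 12.7. All 6 were listed at P3 and P7. They were picked by their strength at P1, and most gained peaks so strong were listed later. In bin 2 of the P1 list 77 of 80 gained peaks were listed at P3 (96.25%), beside 98.9% of kept peaks.

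Kept peaks could still move far in rank. The percentile rank of a peak by −log10 p in its list, with the strongest near 100, correlated across the 19021 kept peaks with a Spearman coefficient of 0.739, a description over peaks that share both lists. The median change was -7.39 percentile points, and it was -12.5 for peaks outside promoters and -3.98 for promoters. The direction of this median follows from list length, since lost peaks made up 44% of the E18.5 list and were weaker at the median than kept ones, and percentile moves of single peaks carry the same shift. The largest upward moves were at Pex16 (chr2:92214785-92214959), Abcc5 (chr16:20425810-20426251), Kcna2 (chr3:106930764-106931076) and Wbp2 (chr11:115948790-115949013). At the promoter of Pex16, needed for making peroxisomes, the fold enrichment was 4.87 at E18.5 and 18.6 at P1. The promoter of Abcc5, an efflux transporter, had 5.88 and 19.5, and that of Wbp2, a transcriptional coactivator, 5.50 and 19.2. An intergenic peak 26279 bp from Kcna2, the potassium channel Kv1.2, had 5.99 at E18.5, 16.9 at P1, 15.2 at P3 and 11.2 at P7. None of these 4 was in the Tle4 list of E18.5. The largest downward moves were at intergenic peaks nearest to Bhlhe23 (13.5 at E18.5 and 7.87 at P1), Svil (15.1 and 8.57), 4930544G11Rik (18.47 and 8.21) and Cer1 (16.7 and 8.57). The peak near Cer1 recovered, to 11.9 at P3 and 16.5 at P21, whereas the one near Bhlhe23 was last listed in Cux2 neurons at P3, at 7.56, and in Tle4 neurons at P7, at 8.73.

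The strongest kept peaks barely moved. At the promoter of Mtr, methionine synthase (chr13:12349982-12350745), the fold enrichment was 25.1 at E18.5 and 22.9 at P1, and all 12 lists held it, between 16.02 and 25.5. The peak at Trpm8, a cold-sensing ion channel (chr1:90173820-90174717), was the strongest of the E18.5 list, at 19.4, and stood at 22.1 at P1.

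Later ages separated gained from lost peaks. The Cux2 list of P3 held 68.3% of gained peaks (interval 66.5 to 70.0%), 30.4% of lost peaks (29.7 to 31.1%) and 90.4% of kept E18.5 peaks (90.01 to 90.8%). At P7 the shares were 55.4%, 24.2% and 77.7%, and at P48 35.0%, 22.9% and 62.9%. The gap between gained and lost peaks was present in each bin, although bin 1 held a single gained peak. The bins follow rank within each list and not equal strength. Bin 5 spanned a −log10 p of 13.4 to 15.7 at P1 and 11.4 to 13.8 at E18.5. In bin 5, the weakest of each list, 59.5% of gained and 24.0% of lost peaks were listed at P3, and in bin 3 85.7% and 35.4%. At P3 or P7 together 77.7% of gained peaks (76.1 to 79.3%) and 39.1% of lost peaks (38.4 to 39.9%) were listed. With all 4 lists to P7 cut to 21747 peaks the shares were 64.8% and 29.5%. Many losses were not lasting in these lists, since 5859 of the 14967 lost peaks were listed again at P3 or P7. The promoters among lost peaks came back more often than the rest, at P3 in 42.6% and 28.3% of cases. On the other side, 7735 lost peaks (51.7%) were in no later Cux2 list, and 6539 (43.7%) in no other list of either class. Only 494 gained peaks (18.1%) were in no later Cux2 list.

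**Figure D3:**
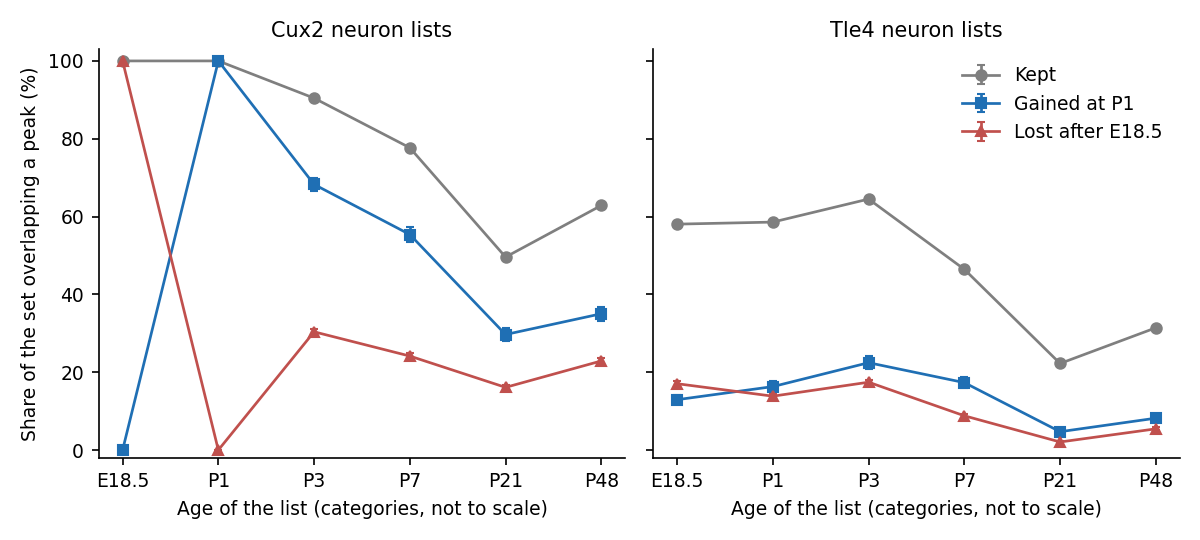
Share of kept, gained and lost peaks (y axis, %) that overlapped a peak in the Cux2 lists at left and the Tle4 lists at right at each age (x axis, categories); bars are 95% Wilson intervals, and the values at E18.5 and P1 in Cux2 neurons follow from the definitions. From P3 on, gained peaks lie above lost peaks in both classes, with 68.3% and 30.4% at P3 in Cux2 neurons.

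Tle4-lineage corticothalamic neurons of layer 6 held few of the changed peaks. At E18.5 the Tle4 list held 17.1% of lost and 12.9% of gained peaks, and at P1 13.8% and 16.3%, against 58.1% and 58.6% of kept peaks. The lowest −log10 p was 14.5 in the Tle4 list of E18.5 and 17.4 in that of P1. In the Cux2 lists the medians were 15.1 for lost, 15.6 for gained and 27.4 for kept E18.5 peaks, and 45.0% of kept peaks were promoters. The low shares of changed peaks thus cannot be read apart from peak strength and context. The Tle4 step from E18.5 to P1, between lists of 19716 and 19508 peaks, lost 22.2% and gained 21.6%. The next Cux2 step ran the other way in length. From P1 to P3 12.3% of peaks were lost and 35.2% gained, between lists of 21747 and 29298 peaks, and at equal length 22.6% and 23.0%. The longer list of a step must hold the larger share of unmatched peaks when about as many are kept on either side. With lists of equal length within each step, the Cux2 step across birth had 26.8% lost. The share was 21.8% in the Tle4 step and 30.5% in the Cux2 step from P3 to P7. The lengths differed between these steps, at 21747, 19508 and 29298 peaks, so the order of the shares cannot be read apart from length. These shares come from single lists, and their differences were not tested.

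The 10 genes with most lost peaks spanned 196.5 to 1945 kb. A peak was linked to the protein-coding gene with the nearest TSS within 100 kb, which gave 10875 lost peaks at 6535 genes and 2038 gained peaks at 1838 genes. Among linked peaks 40.2% were lost and 11.2% gained, and 2498 genes had every linked E18.5 peak lost. Pde4d, a cyclic AMP phosphodiesterase (chr13:109240142-110743669), had 15 of 24 E18.5 peaks lost, 12 of them in introns. Dlg2, which encodes the postsynaptic scaffold PSD-93 in the longest of these genes (chr7:97650473-99595513), had 14 of 24 lost and none gained. Nckap5 (chr1:127810197-128727376) had 13 of 16 lost, and its promoter peak was among them, at a fold enrichment of 10.6 at E18.5, while the Tle4 list of P1 held it at 8.56. Fyn, a Src family kinase that acts in migration and myelination, had 10 of 16 lost and 2 gained, and Bach2, a transcriptional repressor, likewise 10 of 16 and 2. The kindred genes Frmd4a and Frmd4b had 11 of 19 and 11 of 13 lost. Many of these lost peaks lay beyond the P1 length, and those within it numbered 9 at Pde4d, 6 at Dlg2 and Nckap5, 3 at Frmd4a and 4 at Frmd4b, Fyn and Bach2. Pam, which amidates neuropeptides, had 10 of 17 lost and 3 gained, Fam189a1 10 of 13, and 1700025G04Rik 11 of 13. Return by P3 or P7 varied among these genes, from 9 of 15 lost peaks at Pde4d and 6 of 10 at Pam to 2 of 13 at Nckap5 and 2 of 11 at 1700025G04Rik. Genes come to this list by their peak number as much as by their share of losses.

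Genes with many gained peaks had fewer of them, at most 5. Arhgap15, a GTPase-activating protein for Rac, had 5 of 12 P1 peaks gained. The strongest of these, chr2:43986821-43987241 in an intron, stood at 13.8 at P1 and 12.1, 9.65, 9.40 and 7.34 at the later ages, and the first 4 Tle4 lists held it too, with 11.3 at E18.5. Its gained promoter peak, at 7.63, was listed at P1 alone. Csmd2, a transmembrane protein of synapses, had 1 peak at E18.5 and 6 at P1, and 4 of its 5 gained peaks were listed at P3 or P7. Even its kept peak was weak at E18.5, at 7.17 against 12.1 at P1. Mtap2, the dendritic microtubule protein MAP2, had 4 of 8 P1 peaks gained, all listed later, and 2 of 6 E18.5 peaks lost. Of these gained peaks 1 (chr1:66242889-66243196) lay within 500 bp of a kept peak (chr1:66243419-66243651). Both had the same values in every later Cux2 list, such as 9.43 at P3, so its later listing is not separate from that of the kept peak. Cdh11, a cadherin, had 4 gained peaks in introns, while its single E18.5 peak, at 9.34, was lost. Gpr26, an orphan receptor, had 4 of 5 gained, 1 of them at its promoter, which stayed listed in every later Cux2 list between 5.67 and 9.18. Slc24a3, a sodium-calcium exchanger, had 4 of 5 gained, Arhgap26 5 of 9, and Prr5, Pkhd1 and 9030425E11Rik 3 each, of 4, 5 and 7. At least 1 gained peak was listed again at P3 or P7 for each of the 10 genes.

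Most genes with a promoter peak at E18.5 had one at P1 as well. Of 10370 protein-coding genes with an E18.5 peak within 1 kb of a TSS, 1535 had none at P1 (14.8%), and of 9059 genes with a P1 promoter peak 224 had none at E18.5 (2.47%). The promoters listed only at E18.5 were weak ones, with a median percentile rank of 28.8 against 83.1 for those listed at both ages. Among genes whose promoter peak ranked within the 21747 strongest E18.5 peaks, 585 of 8740 had none at P1 (6.69%). By P3 or P7, 59.2% of the genes lost at P1 had a promoter peak again. The gene lists described next hold 259 entries in 11 groups, and all entries were matched to the annotation, 4 of them by an older symbol.

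Upper-layer genes kept most of their promoters, as genes did in general, and lost many other peaks. Of 20 CPN identity genes 15 had an E18.5 promoter peak. Of these 3 were not listed at P1 (20%, interval 7.05 to 45.2%), beside 14.8% of all genes. They were Cpne4 (8.58 at E18.5), Chn2 (7.86) and Limch1 (6.78, and again 8.49 at P3). Promoters listed at both ages included Pou3f1 (11.6 and 11.5 at E18.5 and P1), Pou3f2 (7.60 and 9.55), Lhx2 (10.0 and 10.3) and Cux1 (9.53 and 7.62). Of the 79 E18.5 peaks linked to the list 44 were lost (55.7%, interval 44.7 to 66.1%), and 3 of 38 P1 peaks were gained. Among peaks within the P1 length the count was 17 of 45 (37.8%, interval 25.1 to 52.4%), beside 23.6% of all linked peaks so ranked. The list was not matched in its share of promoter peaks, so this difference cannot be read apart from that share. Cux2 itself, singled out after its values were seen because it carries the Cre, had 6 of 9 E18.5 peaks lost and none gained. Its kept peaks were 2 intronic ones (9.11 and 10.99 at chr5:122322265-122322603, and 13.0 and 11.8 at chr5:122354824-122355217) and a promoter peak at 9.61 and 9.23. A second promoter peak, 417 bp from a TSS, stood at 5.84 at E18.5 and in no other list. Of the 6 lost peaks 1 was listed again in a later Cux2 list, 1 ranked within the P1 length, and no Tle4 list held any of the 9.

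On the list of deep-layer genes, promoters listed only at E18.5 were frequent. Its members were not checked for expression in other layers, so the counts describe the list and not deep-layer identity. Of 13 with an E18.5 promoter peak 7 had none at P1 (53.8%, interval 29.1 to 76.8%), beside 14.8% of all genes, and within the P1 length 4 of 8, beside 6.69%. The list's median promoter rank of 41.4 was low beside 78.0 for all genes. At Tbr1, a master regulator of layer 6 neurons, the promoter stood at 8.73 at E18.5, was not listed at P1 or P3, and stood at 5.23 at P7, while every Tle4 list held it, with 8.56 and 7.15 at E18.5 and P1. At Foxp2, a forkhead factor of corticothalamic neurons, it stood at 6.79 at E18.5, 6.29 at P3 and 6.70 at P7, and 6.79 and 7.07 in the Tle4 lists of E18.5 and P1. The promoter of Nfib stood at 5.45 at E18.5 and was likewise listed in Tle4 neurons at both ages, at 7.65 and 8.16. Those of Bcl11a (5.50), Ntsr1 (6.65), Bhlhe22 (7.95) and Lmo3 (5.73) were not in the Tle4 list of P1. Pcp4 alone was listed only at P1, at 9.54. Of 62 linked peaks 40 were lost (64.5%, interval 52.1 to 75.3%), beside 40.2% of all linked peaks. The interval includes the 55.1% lost among all E18.5 peaks outside promoters. Within the P1 length 12 of 26 were lost (46.2%, interval 28.8 to 64.5%), beside 23.6% of all linked peaks so ranked. The list was not matched in its share of promoter peaks. Sox5, chosen after its values were seen, had 7 of 8 lost, 1 of them within the P1 length, and 1 gained, in a gene that controls the timing of deep-layer fate. Bcl11b and Tle4 promoters were listed at both ages, at 9.32 and 10.8, and at 13.3 and 17.1.

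Genes of immature neurons stayed near the background. Of 72 peaks linked to SoxC and cytoskeletal genes of young neurons 30 were lost (41.7%, interval 31.0 to 53.2%), and 17 of 24 promoters were listed at both ages, among them Sox4, Sox12 and Sox11 (9.74 and 9.91). Dcx, the microtubule protein of migrating neurons, went further, with 5 of 5 linked peaks lost. Its promoter peak stood at 7.20 at E18.5 and was next listed at P21, at 7.997. The promoters of Gap43 (5.47), a growth cone protein, Tubb2a (7.004) and Neurod1 (5.36) were also listed only at E18.5. Nrp1, a semaphorin receptor, was listed only at P1, at 7.80. Neural progenitor genes, a check on the labelled population, had 10 of 24 promoters listed at E18.5 and 7 at P1. Over all protein-coding genes 10370 of 22350 had an E18.5 promoter peak, a share like the 10 of 24, and 9059 had one at P1. The check therefore does not tell whether progenitors were among the labelled cells. The 3 not listed at P1 (30%, interval 10.8 to 60.3%, beside 14.8% of all genes) were Sox2, Mki67 and Hopx. All 3 were listed again at P3. Another 7 promoters were listed at both ages, and 14 were in neither list, those of Eomes, Neurog2, Hes5 and Nes among them.

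Axon guidance genes included many weak promoters. Of 20 promoters listed at E18.5 8 were not listed at P1 (40.0%, interval 21.9 to 61.3%), beside 14.8% of all genes, and within the P1 length 3 of 14, beside 6.69%. They were receptors (Robo2, Dcc, Unc5c and Nrp2), semaphorins (Sema3a, Sema3c and Sema6d) and the adhesion molecule L1cam, at fold enrichments from 5.64 at Robo2 to 8.10 at Nrp2. Dcc, the attractive netrin receptor, stood at 7.76 at E18.5 and 5.67 at P3. Sema3c returned with 7.80 at P3, 6.31 at P7 and 7.94 at P21. Slit1, a repellent ligand, was listed only at P1, at 8.22. Of 85 linked peaks 44 were lost (51.8%, interval 41.3 to 62.1%), beside 40.2% of all linked peaks, and within the P1 length 15 of 50, beside 23.6%. Of 50 P1 peaks 9 were gained (18%, interval 9.77 to 30.8%), beside 11.2%.

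Synaptic genes lost 61 of 130 linked peaks (46.9%, interval 38.6 to 55.5%), an interval that includes the 40.2% of all linked peaks, and 14 of them were at Dlg2. Within the P1 length 28 of 84 were lost (33.3%, interval 24.2 to 43.9%), an interval above the 23.6% of all linked peaks so ranked. Promoters made up 12.9% of lost and 48.7% of kept peaks within the P1 length, and the list was not matched in promoter share. The difference cannot be read apart from that share. Of 25 promoters of synaptic genes listed at E18.5, 21 were kept. The share not listed at P1 was 16% (interval 6.40 to 34.7%), beside 14.8% of all genes. Vamp2 (10.2 at E18.5 and 7.83 at P3), Gria2, Grin2a and Nrgn were the exceptions, each listed again at P3. Genes for potassium and chloride transport had the largest share of gained peaks among the 11 lists, 13 of 55 (23.6%, interval 14.4 to 36.3%), beside 11.2% of all linked P1 peaks. They also lost 38 of 81 E18.5 peaks (46.9%, interval 36.4 to 57.7%), beside 40.2% of all linked peaks. Within the P1 length 19 of 52 were lost (36.5%, interval 24.8 to 50.1%), beside 23.6% of all linked peaks so ranked, again without matching in promoter share. Kcnip4, a subunit that tunes A-type channels, had 3 of 6 gained, and its promoter, at 8.32 at E18.5, was not listed at P1. Kcnab1 and Kcnip1 were listed at their promoters only from P1, at 8.16 and 9.38, and stayed at 8.13 and 7.19 at P3 and 10.1 and 8.03 at P7. The only linked peak of Slc12a5, the chloride exporter KCC2, was lost, while Slc12a2, the importer NKCC1, kept its promoter.

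Activity-regulated genes had the lowest share of lost peaks among the 11 lists. Of 24 promoters listed at E18.5 all 24 were listed at P1, and the upper limit of the interval for a loss was 13.8%. All 24 ranked within the P1 length, where the share over all genes was 6.69%, which that interval includes. Of 66 linked peaks 15 were lost (22.7%, interval 14.3 to 34.2%), and within the P1 length 9 of 54 (16.7%, interval 9.02 to 28.7%), which includes the 23.6% of all linked peaks so ranked. Fos, an immediate early gene, kept 6 of 6 peaks, with a promoter at 8.13 and 11.7, Arc 3 of 3 (11.2 and 12.8), and Nr4a1 and Dusp1 3 of 3 each. Egr3 lost 3 of 6. These promoters were strong, with a median rank of 78.9, close to the 78.0 of all genes. Glucocorticoid and hypoxia response genes, listed because birth brings a hormone surge and a change in oxygen, lost 17 of 45 linked peaks (37.8%, interval 25.1 to 52.4%). The promoters of Zbtb16 (9.004), a hormone-induced repressor, and Vegfa (6.06), a hypoxia target, were listed only at E18.5. Those of Fkbp5, Tsc22d3, Sgk1 and Klf9 were listed at both ages.

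**Figure D4:**
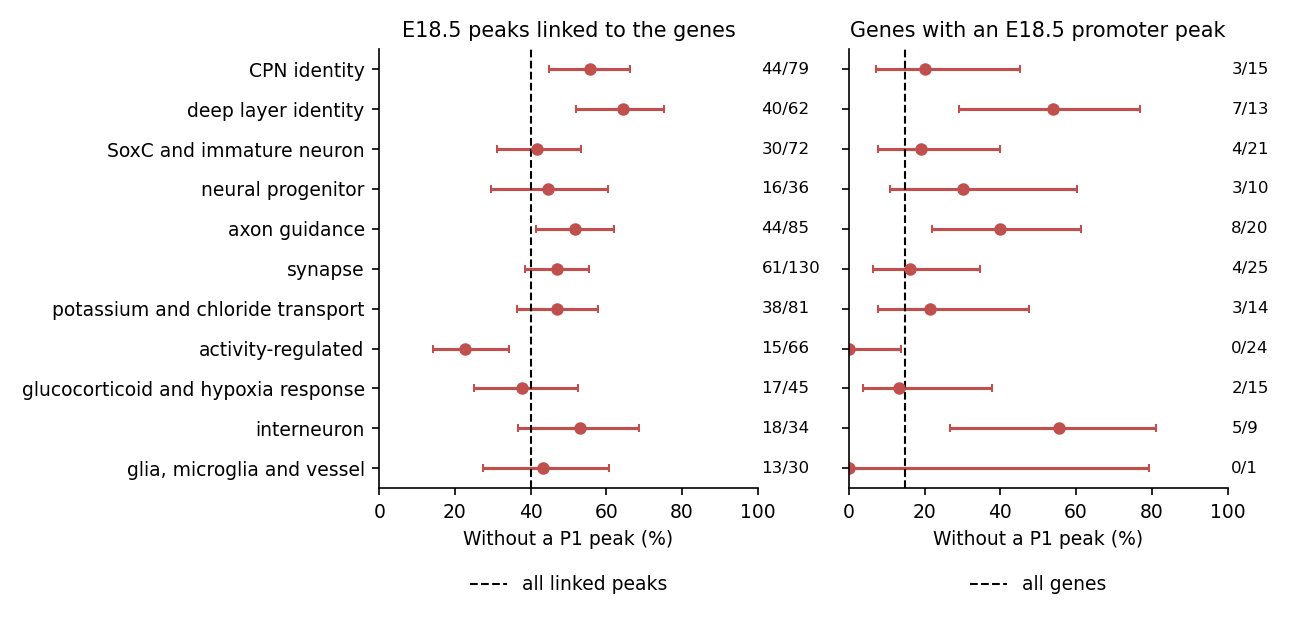
Share of linked E18.5 peaks lost (left, x axis in %) and of genes with an E18.5 promoter peak but none at P1 (right, x axis in %) for the 11 gene lists, with counts at the margin; bars are 95% Wilson intervals and dashed lines give 40.2% of all linked peaks and 14.8% of all genes. Deep layer identity stands at 64.5% and 53.8%, activity-regulated genes at 22.7% and 0%. The lists were not matched in their share of promoter peaks.

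Fewer promoters of interneuron genes were listed at P1 than at E18.5, and promoters of glial, microglial and vessel genes were nearly all unlisted. Of 20 interneuron genes 9 had a promoter peak at E18.5 and 4 at P1. Over all protein-coding genes 10370 of 22350 had an E18.5 promoter peak, a share like the 9 of 20, and 9059 had one at P1. Of the 9 interneuron genes 5 had none at P1 (55.6%, interval 26.7 to 81.1%), beside 14.8% of all genes. Dlx1 (5.95 at E18.5), Dlx2 (6.31), Gad2 (5.54) and Lhx6 (6.26) were among those listed only at E18.5, while Dlx5, Prox1, Maf and Calb2 were listed at both ages. Dlx1, Dlx2 and Gad2 were in no other list of the series at their promoters, and Lhx6 was listed again at P3. The defining genes Gad1, Slc32a1, Sst, Pvalb, Vip and Npy had no promoter peak at either age. Of 34 linked peaks 18 were lost (52.9%, interval 36.7 to 68.5%), an interval that includes the 40.2% of all linked peaks, among them both peaks of Slc32a1, the GABA transporter, and both of Npy. These promoters were weak, with a median rank of 25.8. Of the 9, 3 ranked within the P1 length, and 1 of these was lost, beside 6.69% of all genes so ranked. The part of interneurons in the lost peaks was not tested. Among 22 genes of glia, microglia and vessels only Gfap had a promoter peak at both ages and Olig1 one at P1, and Aif1, Cx3cr1, Csf1r and Cldn5 had no linked peak. The list had 30 linked E18.5 peaks, of which 13 were lost (43.3%, interval 27.4 to 60.8%), near the share of all linked peaks. As a check of the CPN label, 12 of the 20 CPN identity genes had promoter peaks at both ages, Cux1, Cux2, Pou3f1, Pou3f2 and Lhx2 among them, 3 only at E18.5 and 5 at neither age. Of the 20 genes of the deep-layer list 6 had promoter peaks at both ages. Over all protein-coding genes 8835 of 22350 had them at both ages (39.5%), a share between those of the CPN and deep-layer lists. With 20 genes in each list the differences were not tested, and the counts alone do not settle the label.

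Sequence at the summits differed between lost and gained peaks, and it was no part of the sorting. Outside promoters, the MEF2 letters TATTTNTA, bound by factors that act in activity-dependent synapse development, were present in 13.5% of gained windows (interval 12.2 to 14.9%), 9.44% of kept (8.89 to 10.0%) and 7.98% of lost ones (7.53 to 8.47%). Several motifs had the opposite order. The proneural E-box CAGATG, read by NeuroD and neurogenin factors, was in 32.2% of lost windows (31.4 to 33.0%), 26.6% of kept and 21.9% of gained ones (20.3 to 23.6%). The NFI letters TTGGCA were in 22.2%, 17.3% and 13.9%, and the homeodomain letters TAATTA in 10.6%, 7.96% and 6.06%. Smaller differences of the same order were seen for the E-box CAGCTG (18.8%, 16.8% and 15.0%), the glucocorticoid receptor letters ACANNNTGT (10.9%, 9.83% and 8.04%) and the SOX letters AACAATG (3.67%, 2.75% and 2.27%). The AP-1 letters TGANTCA did not separate the sets, at 6.69%, 6.76% and 6.78%. No motif contains the letters of another, although GC-rich ones can share bases.

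These orders were also seen within the P1 length. Among the lost peaks within the P1 length the share with the proneural E-box was 35.4%, beside 27.2% of kept peaks so ranked, and with the NFI letters 25.0% beside 17.8%. Gained peaks at equal length held the MEF2 letters in 11.6% (interval 10.7 to 12.5%) and the homeodomain letters in 6.44%. Base composition was close outside promoters, with a median GC content of 44.3% in lost, 45.3% in kept and 43.3% in gained windows. Lost peaks that never returned in a Cux2 list held the NFI letters in 24.7% (23.7 to 25.8%) and the homeodomain letters in 12.5%, against 17.6% and 9.09% of those listed at P3 or P7. In the whole lists outside promoters the MEF2 letters were in 8.64% of E18.5 and 10.4% of P1 windows and the proneural E-box in 29.7% and 25.2%. At promoters the ETS letters CCGGAAG were in 17.9% of kept, 6.45% of lost and 6.69% of gained windows, and SP/KLF letters in 41.9%, 28.4% and 29.0%. A match describes the letters in these windows and does not show that a factor was bound.

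**Figure D5:**
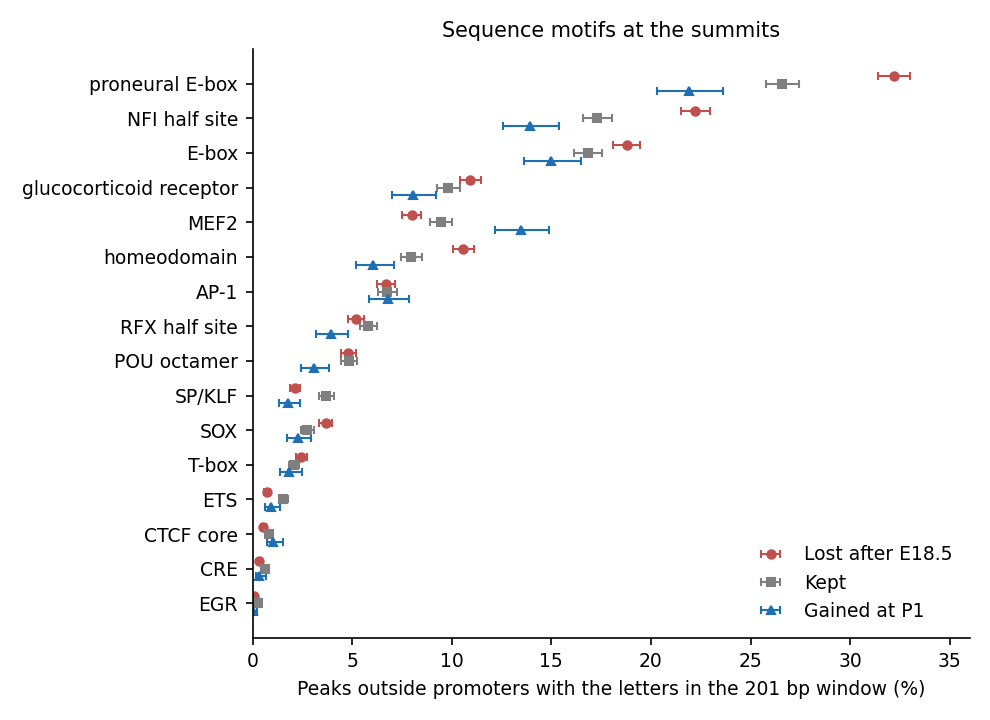
Share of lost, kept E18.5 and gained peaks outside promoters (x axis, %) whose window of 100 bp on each side of the summit held each of 16 motifs on either strand; bars are 95% Wilson intervals. MEF2 is highest in gained peaks (13.5%), and the proneural E-box, NFI and homeodomain motifs are highest in lost peaks (32.2%, 22.2% and 10.6%).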

How the data were processed

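ATAC-seq peak lists of Cux2 CPNs at E18.5 and P1 were compared, with the 10 other lists of the series read for presence. The authors used Bowtie2 with its defaults for alignment and Picard to mark duplicates. Peak calling was by MACS2, followed by an irreproducible discovery rate filter across the 2 replicates. No transposase shift of read ends was stated. Each deposited list holds positions (mm9, per the submitters' processing notes), fold enrichment as a ratio to local background, −log10 of p and of q, and a summit offset. It holds no counts, so depth and replicate spread cannot be read from it; the study's own replicate-level tests were not used here. A filter on reproducibility shortens a list when replicates differ or depth falls.

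Overlaps were computed in Python 3.11.15 with pandas 2.3.3 and tested on simulated intervals. Peaks were annotated with GENCODE vM1 on NCBIM37, whose chromosome 1 spans 197195432 bp (largest peak end 197068252). Peaks were ranked by −log10 p, windows of 100 bp on each side of the summit were read with pysam 0.24.0, and shares carry 95% Wilson intervals. Named regions were the 6 strongest lost and gained peaks and the 4 kept peaks with the largest rank change in each direction. Named genes were the 10 with most lost or gained linked peaks, with listed genes whose promoter was in 1 list only; other genes in the text are listed genes given as examples. Some regions and genes that these rules name are not reported here. Members and lists were chosen with earlier results of these data known. Alternatives covered list length, threshold, overlap rule, promoter definition and sequence window.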

Additional observations from a re-analysis of the deposited data

Results flagged for a closer look

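Peaks outside the compared chromosomes were listed at both ages and entered no comparison. The mitochondrial genome had 7 peaks at E18.5 and 7 at P1, and chromosome Y had 4 at P1, each above the 3 counts that an empty class allows. Pooling of male and female animals in each library is stated by the study, and chromosome Y had 3 peaks at E18.5.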

How the results depend on the processing

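Of 81 alternative values, 37 stayed within 1.5-fold of a count or within the interval of a share, and 44 moved. Asking for an overlap of 50% of the shorter peak moved none, and merging overlapping peaks of a list changed nothing, since no list held any. With both lists cut to equal length by −log10 p, lost peaks numbered 5832 and gained peaks 5787 (26.8% and 26.6%), promoters made up 12.9% of lost, 19.8% of gained and 48.7% of kept peaks, and 45.1% of lost and 81.2% of gained peaks were listed at P3 or P7. With equal length by fold enrichment the values were 6407 and 6353 (29.5% and 29.2%), promoters 9.22%, 27.2% and 46.7%, and later presence 43.0% and 82.6%. With both lists cut at the same −log10 p of 13.4, 36.3% were lost and 17.8% gained, promoters made up 15.8% of gained and 46.4% of kept peaks, and 42.3% of lost peaks were listed later. In the stronger 50% of each list, 7428 peaks were lost, 1302 gained (12.0%) and 9566 kept, promoters made up 21.2%, 26.04% and 61.8%, and later presence was 70.7% and 96.5%. Counting a peak within 500 bp as kept gave 43.2% lost and a promoter share of lost peaks of 13.7%. Promoters within 2 kb made up 17.4%, 16.5% and 47.4% of lost, gained and kept peaks, and protein-coding TSSs alone gave 13.1%, 11.5% and 43.3%. With all 4 Cux2 lists to P7 at equal length, 29.5% of lost and 64.8% of gained peaks were listed later. The promoter share of gained peaks lay above that of lost peaks in the settings that cut either list and below it in the others, while gained peaks were listed later more often than lost peaks under every alternative run. Over whole peaks the median GC content was 44.9% for lost, 44.2% for gained and 51.4% for kept peaks. No paired analysis was possible because each deposited list pools its replicates, and for the same reason no replicate could be left out. Depth limits what a missing peak means, since absence from a list is not absence of accessibility.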
